A study of Caenorhabditis elegans with 2 samples.

Results

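The mitochondrial ribosomal protein genes of Caenorhabditis elegans were examined for binding of the nuclear hormone receptor NHR-76. They were defined as the protein-coding genes whose symbol begins with mrpl- or mrps- in the Ensembl annotation of WBcel235, and there are 70 of them among 19973 nuclear protein-coding genes. Of the 70, 41 carry a large-subunit name (mrpl) and 29 a small-subunit name (mrps). Binding was measured by chromatin immunoprecipitation and sequencing in mixed-stage embryos of strain OP203, unc-119(ed3) III; wgIs203, in which NHR-76 is made from a transgene with GFP and FLAG at its C terminus. The 2 libraries are biological replicates 1 and 2 of this single group, from males and females pooled. There was no second condition, the antibody label names only nhr-76, and whole embryos were used, so binding cannot be assigned to any tissue.

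Mitochondria keep their own ribosomes, which translate the few messages of the mitochondrial genome into subunits of the respiratory chain. Their proteins are all encoded in the nucleus, made in the cytosol and imported, and the large subunit joins the amino acids while the small subunit decodes the message. In worms, loss of such proteins, mrps-5 above all, is known for a longer lifespan and for the mitochondrial unfolded protein response. NHR-76 is known for a role in intestinal fat regulation. Many worm messages are trans-spliced and many genes lie in operons, so an annotated 5′ end is often not where transcription starts.

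The values are peak signals from 4 deposited lists on the ce11 assembly. The pooled list, of peaks and background together, held 30000 candidates, and the replicate lists held 7516 for replicate 1 and 30000 for replicate 2. The final list held the 140 peaks that passed the reproducibility threshold, whose lowest signal was 20.0. A candidate was assigned to a gene when its summit lay within 1000 bp of a transcript 5′ end, and each gene was given its highest signal and the rank of that signal, with rank 1 the strongest. Signals have no stated scale and were compared only within a list, and the read depth is unknown.

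Most of the genes had a candidate, but none had a final peak. A pooled candidate lay within reach of 55 of the 70 genes (78.6%, exact 95% interval 67.1% to 87.5%), against 54.2% of all nuclear protein-coding genes. With each peak given only to its nearest gene the gap was smaller, 43 genes (61.4%) against 48.7%. A final peak lay within reach of 0 of 70 genes (exact 95% interval 0% to 5.13%), where the background was 0.621% and 0.435 genes would be found at that share. A stronger candidate, 1 among the 3000 highest signals, lay within reach of 9 genes (12.9%, interval 6.05% to 23.0%), against 8.83% of all genes. Among the 10000 highest it was 25 genes (35.7%, interval 24.6% to 48.1%), against 24.0%. Intervals cover counting error over genes only, and since the genes were chosen by name with earlier results known, no test of the list was made.

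Among genes with a candidate, signals of the family were close to those of other genes. Their highest signals ran from 2.84 to 13.1 with a median of 4.92, and the median over the 10826 genes with a candidate was 4.83. Of the 55 genes, 9 had a stronger candidate (16.4%), next to 16.3% of all genes with a candidate. Candidates at 2 of the 55 genes, mrps-21 and mrpl-32, reached the highest −log10 q-value of the list, 3.16 (3.64%, next to 4.81% of all genes with a candidate). At the 9 genes with a stronger candidate the −log10 q-value was at least 1.6 (mrpl-39). Below them it was at most 1.15 (mrpl-21). It was 0.514 at mrpl-34, whose signal was the median of 4.92, and fell to 0.0917 at mrpl-4.

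**Figure D1:**
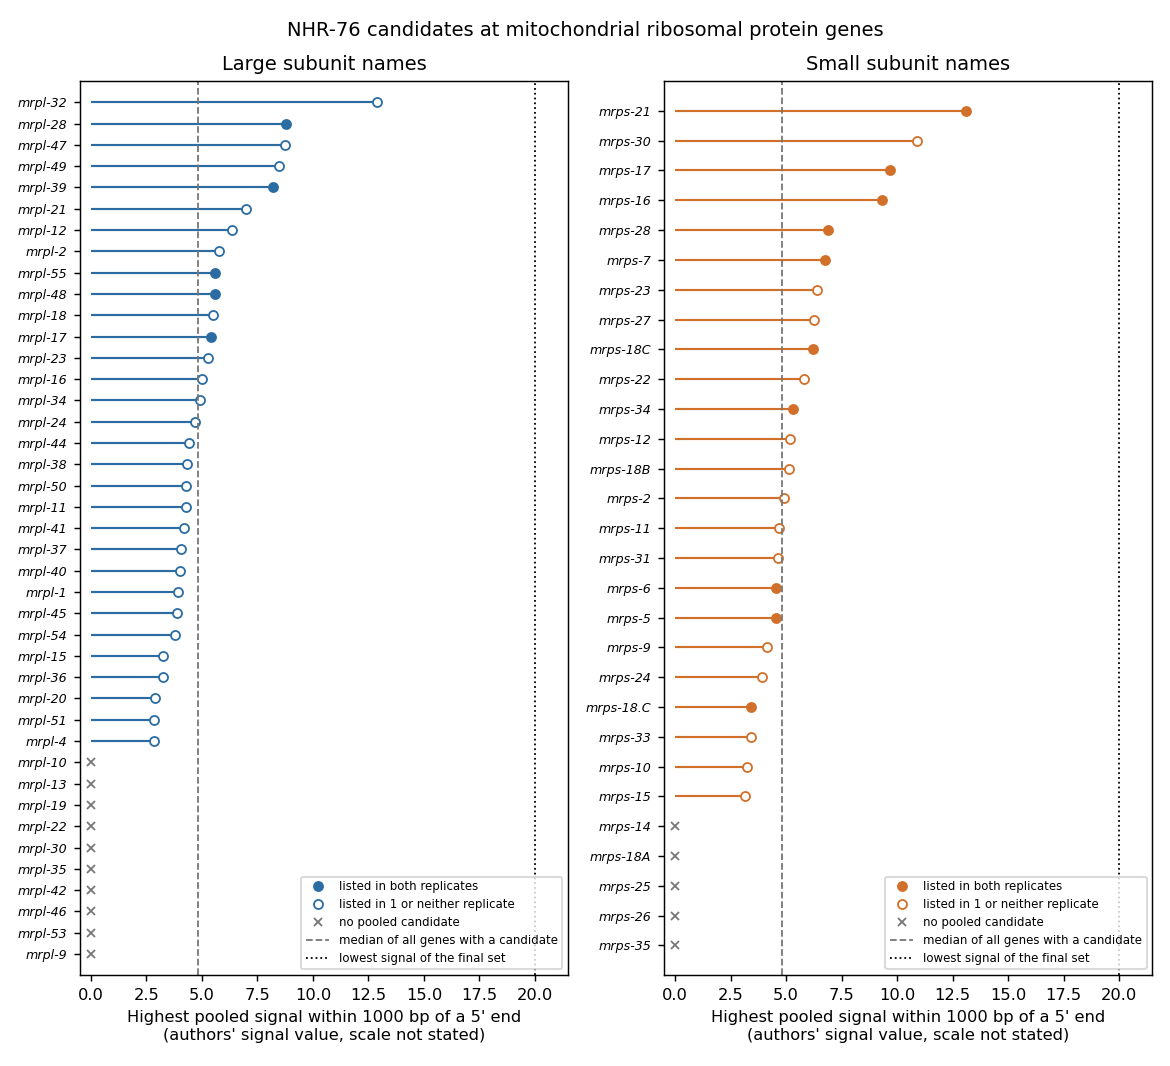
Highest pooled signal within 1000 bp of a transcript 5′ end for each of the 70 genes (horizontal axis, authors' signal value without a stated scale), large-subunit names on the left and small-subunit names on the right. Filled points are genes listed in both replicates, open points genes listed in 1 or neither, crosses genes with no pooled candidate; every point lies left of the dotted line at 20.0, the lowest signal of the final set, and the dashed line at 4.83 is the median of all genes with a candidate.

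The small-subunit genes held the strongest candidate of the family. That of mrps-21, whose bacterial counterpart is protein S21, had a pooled signal of 13.1 (rank 386), with 2.52 (rank 4635) in replicate 1 and 9.95 (rank 682) in replicate 2. Both replicates listed it, with summits 32 bp apart, high in the second list and low in the first. The peak, at chromosome IV 4660145 to 4660484, had its summit 798 bp upstream of mrps-21 and 114 bp from the 5′ end of F29B9.11, so it was nearer to another gene. Another gene on the same strand ended 113 bp upstream of mrps-21.

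The gene mrps-16, for the counterpart of bacterial S16, had a signal of 9.33 in the pooled list (rank 1370), 4.09 in replicate 1 (rank 1093) and 8.85 in replicate 2 (rank 1110). It was well up in all 3 lists, but the highest peak of replicate 1 was at another position, 229 bp upstream. The pooled summit lay 60 bp inside the gene, in its coding exon (chromosome II, 5474263 to 5474602). A weaker replicate 1 peak of signal 2.22 (rank 6139) lay 8 bp from the replicate 2 summit.

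At mrps-17, whose bacterial counterpart S17 binds the ribosomal RNA directly, the pooled signal was 9.69 (rank 1187), with 5.68 in replicate 1 (rank 291) and 6.64 in replicate 2 (rank 3392). The pooled and replicate 2 summits were both 149 bp upstream of the 5′ end, while that of replicate 1 was 490 bp downstream. The 2 replicates thus listed the gene at sites 639 bp apart. At mrps-30, whose mammalian counterpart sits in the large subunit despite its name, the pooled signal was 10.9 (rank 756) and that of replicate 2 was 13.7 (rank 212), the highest of the family in that list. Replicate 1 did not list it, and its summit lay in a coding exon 265 bp downstream of the 5′ end.

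Among the large-subunit genes, mrpl-32 was the highest, with 12.9 in the pooled list (rank 402) and 8.42 in replicate 2 (rank 1359), and no peak in replicate 1. The L32 protein it encodes is known in yeast and mouse as a substrate of the m-AAA protease, which must mature it before the ribosome can assemble. Its peak (chromosome III, 8450524 to 8450863) had its summit 937 bp downstream of the 5′ end, in intergenic sequence past the end of the gene at 8450519. No small RNA gene lay within 500 bp of the summit.

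The mrpl-28 candidate, in an intron 662 bp downstream, had 8.80 in the pooled list (rank 1719), with a gene value of 2.88 in replicate 1 and 7.10 in replicate 2. The replicate 1 peak was elsewhere, 97 bp upstream, 44 bp from a weaker replicate 2 peak of 3.28. At mrpl-47, the counterpart of bacterial L29 at the exit of the peptide tunnel, the pooled signal was 8.76 (rank 1762) and that of replicate 2 was 7.45, both at 31 bp upstream, and replicate 1 listed none. This was the summit closest to a 5′ end among the stronger candidates.

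The last of the stronger candidates were at mrpl-49, for a protein with no bacterial counterpart, and mrpl-39. At mrpl-49 the pooled signal was 8.49 (rank 2017) with the summit 160 bp upstream, and replicate 2 had 5.86 at 881 bp upstream. At mrpl-39 the pooled signal was 8.21 (rank 2287), 114 bp upstream, with 3.36 in replicate 1 at 163 bp upstream and 3.27 in replicate 2 at 915 bp downstream. Of the 9 stronger candidates, 4 lay upstream within 160 bp of the 5′ end (mrps-17, mrpl-47, mrpl-49 and mrpl-39).

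The sequences under these summits are shown to let the strongest sites of the family be compared. Each is the ce11 reference from RefSeq, 50 bases on either side of the summit and 5′ to 3′ on the strand of the gene, and the 2 genes on the first chromosome are left out. The mrps-16 stretch starts at its first coding base, leaves out the 5′ UTR and has its summit at base 26, while the others have it at base 51. Capitals mark matches to any of 8 fixed motifs on either strand.
mrps-21 (chrIV:4660265-4660365, minus strand): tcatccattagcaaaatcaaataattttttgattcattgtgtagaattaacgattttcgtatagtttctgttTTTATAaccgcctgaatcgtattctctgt
mrpl-32 (chrIII:8450644-8450744, plus strand): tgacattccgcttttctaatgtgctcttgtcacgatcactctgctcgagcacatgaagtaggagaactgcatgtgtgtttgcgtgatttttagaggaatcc
mrps-17 (chrIII:6431897-6431997, minus strand): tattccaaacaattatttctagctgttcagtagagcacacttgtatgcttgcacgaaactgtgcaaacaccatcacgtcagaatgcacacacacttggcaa
mrps-16 (chrII:5474408-5474483, plus strand): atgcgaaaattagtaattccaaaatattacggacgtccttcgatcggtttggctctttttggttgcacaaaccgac
mrpl-28 (chrII:155297-155397, minus strand): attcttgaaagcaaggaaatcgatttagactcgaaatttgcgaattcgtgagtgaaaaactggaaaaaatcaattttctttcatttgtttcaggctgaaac
mrpl-49 (chrV:12728421-12728521, plus strand): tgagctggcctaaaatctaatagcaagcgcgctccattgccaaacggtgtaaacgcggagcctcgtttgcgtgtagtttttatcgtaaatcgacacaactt
mrpl-39 (chrV:1821415-1821515, plus strand): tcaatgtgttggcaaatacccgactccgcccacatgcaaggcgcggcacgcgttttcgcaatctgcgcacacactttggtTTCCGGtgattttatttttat

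Of the 7 stretches, 2 held a match. That of mrps-21 held a TATA box match (TATAAA, on the opposite strand) at base 73, and that of mrpl-39 an ETS-type match (CCGGAA, on the opposite strand) at base 81. Neither of the nuclear receptor half-sites searched, AGGTCA and AAGTCA, was in any of the 7. Over the 201 bp around the highest candidate of each gene, AGGTCA on either strand was in 2 of 55 (3.64%, mrpl-15 and mrpl-37), next to 5.45% of the windows of all 10826 genes with a candidate. AAGTCA was in 3 (5.45%, mrpl-24, mrpl-38 and mrpl-54), next to 9.43%. The extended GATA site TGATAA was in 11 (20.0%), next to 16.9%, and TATAAA in 4 (7.27%), next to 17.9%.

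In the 250 bp before the outermost 5′ end of each gene, searched without regard to peaks, AGGTCA was in 2 of 70 promoters (2.86%, mrpl-46 and mrps-33), next to 7.10% of all 19973. TGATAA was in 14 (20.0%, next to 26.8%), AAGTCA in 6 (8.57%, next to 11.1%) and TATAAA in 23 (32.9%, next to 35.2%). Runs of at least 8 T or A (TTTTTTTT) were in 29 (41.4%, next to 31.0%). CCGGAA was in 6 (8.57%, next to 7.03%), the housekeeping-type TCTCGC in 8 (11.4%, next to 7.86%) and GAGAGAGA in 0 (next to 3.22%). These promoters had a median GC content of 29.0%, with 33.2% over all genes, while the summit windows had a median of 38.3% in both. A match is a description of letters and was not tested.

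How far the replicates listed the same genes was asked next. Replicate 1 had a peak within reach of 19 genes (27.1%, interval 17.2% to 39.1%; background 18.1%) and replicate 2 of 50 (71.4%, interval 59.4% to 81.6%; background 52.5%). Both listed 16 genes (22.9%, interval 13.7% to 34.4%; background 12.4%), 10 with small-subunit names and 6 with large-subunit names. With each peak given only to its nearest gene, both listed 7 (10%), close to the 9.91% of all genes. Of the others, 34 were listed in replicate 2 without replicate 1 and 3 in replicate 1 without replicate 2. Those 3 were mrpl-23, mrpl-24, for the counterpart of the early assembly protein L24 of bacteria, and mrps-31. For mrpl-23, a replicate 2 peak of 18.0 had its summit 17 bp from that of replicate 1, but just outside the 1000 bp. At mrpl-24 the summits of replicate 1 (signal 3.38) and of the pooled list (4.67) were both 39 bp upstream. Lists of such unequal length limit what the overlap can show. The 16 genes were 84.2% of the genes of replicate 1 and 32.0% of those of replicate 2. Over all 19973 genes, replicate 1 listed 3612, replicate 2 listed 10478 and both listed 2479. There too, most genes of replicate 1 were also in replicate 2, and most of replicate 2 were not in replicate 1.

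Listing in both replicates seldom meant the same site, in the family (5 of 16 genes) as over all genes (684 of 2479). Summits of the 2 lists came within 100 bp of each other at 5 genes (7.14%, interval 2.36% to 15.9%; background 3.42%), which were mrps-16, mrps-21, mrpl-28, mrps-28 and mrpl-48. Only at mrps-21 were these the highest peaks of all 3 lists. At mrpl-48 no pooled summit lay within 100 bp of both. The mrps-28 pair was of weaker peaks, 3.23 in replicate 1 and 4.05 in replicate 2, where the highest within reach were 4.85 and 7.57. A replicate 2 peak of 15.4 had its summit 82 bp from that of the 4.85 peak, but just outside the 1000 bp. At the other 11 of the 16 genes the nearest summits were 119 bp (mrps-18C) to 1556 bp (mrpl-39) apart. Across the 16 genes, the highest signals of the 2 replicates had a Spearman rho of 0.341, a description across genes that share the libraries, with 0.278 over all 2479 genes listed in both. Pooled signals had a rho of 0.494 with those of replicate 2 over 45 genes and of 0.117 with those of replicate 1 over 18 genes. These 2 values cover different sets of genes and cannot be ranked against each other, and the pooled list includes the reads of both replicates.

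**Figure D2:**
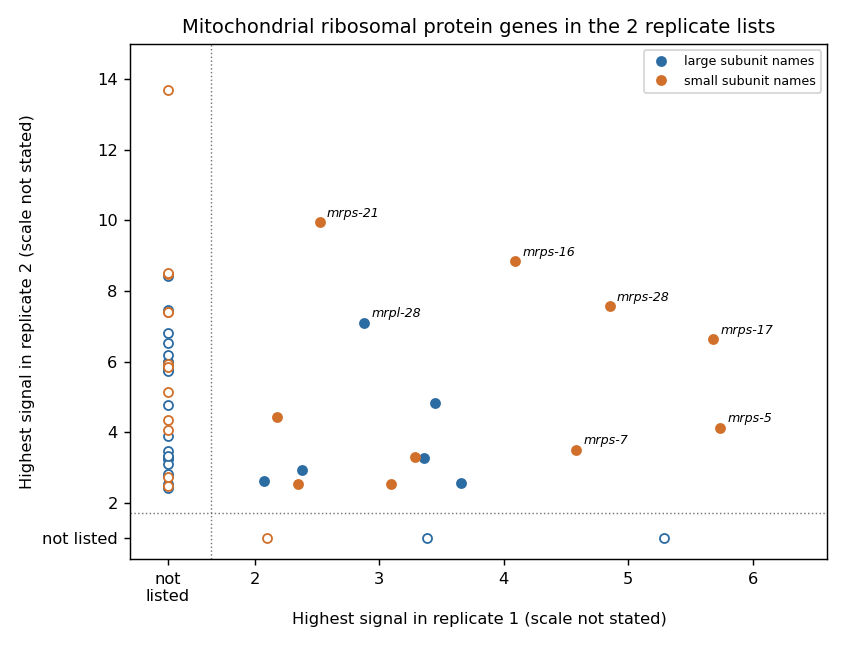
Highest signal within reach of each gene in replicate 1 (horizontal axis) and replicate 2 (vertical axis), both without a stated scale, with large-subunit names in blue and small-subunit names in orange. Filled points are the 16 genes listed in both; open points in the margins are the 34 genes listed in replicate 2 without replicate 1 and the 3 listed in replicate 1 without replicate 2.

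The order of the genes differed between the lists. The strongest in replicate 1 was mrps-5, the S5 gene known for lifespan, with 5.74 in replicate 1 (rank 281), 4.13 in replicate 2 (rank 12702) and 4.53 in the pooled list (rank 13544). The replicate 1 summit lay 728 bp and the pooled summit 630 bp downstream of the 5′ end, while that of replicate 2 lay 69 bp upstream. At mrps-7, whose bacterial counterpart S7 organises the head of the small subunit, replicate 1 had 4.58 (rank 698), replicate 2 had 3.51 (rank 17374) and the pooled list 6.76 (rank 4512). Pooled and replicate 1 summits there fell on the same base, 151 bp upstream, while that of replicate 2 was 756 bp upstream.

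Final peaks lay just beyond reach of 2 genes, mrpl-23 and mrps-28. The protein of mrpl-23 corresponds to L23 at the tunnel exit, and that of mrps-28 is known in mammals as a small-subunit protein. A final peak of signal 22.6 (rank 107 of 140) had its summit 1014 bp upstream of mrpl-23, in an intron and within 500 bp of the snoRNA gene T08B2.13 and the ncRNA gene T08B2.14. A final peak of signal 20.5 (rank 129 of 140) had its summit 1035 bp upstream of mrps-28, in an intron near the snoRNA gene Y43F8C.22 and nearer to the 5′ end of Y43F8C.7 (826 bp).

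The same 2 sites gave both genes their replicate 1 values. In replicate 1 the summits fell 17 bp (mrpl-23, signal 5.29, rank 392) and 82 bp (mrps-28, signal 4.85, rank 550) from the final summits, at 997 and 953 bp upstream and so inside the 1000 bp. In replicate 2 both summits were at the final positions, outside the window, with signals of 18.0 (rank 98) and 15.4 (rank 157). Within reach, the pooled signal was 5.28 at mrpl-23 (rank 9392, in an intron of ech-1.2) and 6.91 at mrps-28 (rank 4180, in a coding exon 92 bp downstream). Whether the signal there belongs to the snoRNA genes or to the ribosomal protein genes was not tested.

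None of the other genes listed in both replicates had a stronger candidate. Their pooled value was 6.2 at mrps-18C, 5.61 at mrpl-55, 5.57 at mrpl-48, 5.40 at mrpl-17, 5.33 at mrps-34, 4.54 at mrps-6 and 3.41 at mrps-18.C, the first 5 above the median of 4.83 over all genes with a candidate and the last 2 below it. Their replicate 1 signals ran from 2.07 (mrpl-48) to 3.66 (mrpl-55), and their replicate 2 signals from 2.54 (mrps-6 and mrps-18.C) to 4.82 (mrpl-17). The last, mrpl-19, was listed in both replicates (2.38 and 2.92) but had no pooled candidate. The medians of all genes listed were 2.84 in replicate 1 and 4.29 in replicate 2, so these values lie on both sides of them.

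Below the stronger candidates, the next genes by pooled signal included 4 that replicate 2 listed and replicate 1 did not. Their pooled signals were 7.0 at mrpl-21, 6.38 at mrps-23, 6.36 at mrpl-12 and 6.26 at mrps-27. The mrpl-12 gene encodes the counterpart of the L7/L12 stalk protein, which recruits elongation factors in bacteria, and mrps-27 an RNA-binding protein of the mammalian small subunit. The mrpl-12 summit was 600 bp upstream and 133 bp from Y39A1A.22. In replicate 2 these 4 genes had 5.76, 5.93, 2.77 and 7.41 in the same order. Other genes stood higher in replicate 2 than in the pooled list, among them mrps-12, for the S12 protein of the decoding centre, with 8.50 (rank 1302) against a pooled rank of 9972.

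At the low end, 15 of the 70 genes had no pooled candidate, a smaller share than the 9147 of all 19973 genes. Of these, 5 were listed in a replicate, mrps-25 the highest with 7.41 in replicate 2 (rank 2249), then mrpl-9 (3.89), mrpl-19 (2.92), mrpl-10 (2.82) and mrps-26 (2.49). The other 10 had no peak in any list. They were mrpl-13, mrpl-22, mrpl-30, mrpl-35, mrpl-42, mrpl-46, mrpl-53, mrps-14, mrps-18A and mrps-35. Conversely, 7 genes with a pooled candidate were in neither replicate list within reach, with pooled signals up to 4.68 (mrps-11). For the 5, the 10 and the 7, the share over all genes was not computed.

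Small-subunit names had the higher share in each list, with the wider gap in replicate 1. A pooled candidate was at 31 of 41 large-subunit genes (75.6%) and 24 of 29 small-subunit genes (82.8%), with median signals of 4.67 and 5.15. A stronger candidate was at 5 (12.2%) and 4 (13.8%). Replicate 1 listed 8 (19.5%) and 11 (37.9%), replicate 2 listed 28 (68.3%) and 22 (75.9%), and both listed 6 (14.6%) and 10 (34.5%). By chromosome, a pooled candidate was at 12 of 15 genes on I (80.0%, next to 60.3% of all genes there), 9 of 12 on II (75.0%, next to 55.0%) and 17 of 22 on III (77.3%, next to 58.0%). It was at 8 of 11 on IV (72.7%, next to 51.4%) and 9 of 10 on V (90.0%, next to 48.3%), and no member of the family is on X. The subunits' shares were not tested against each other.

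By the rule all 55 highest candidates lay within 1000 bp of a 5′ end. Of them, 34 lay within 500 bp (61.8%, next to 57.8% of all genes with a candidate), and a fair part of the 55 lay inside genes. The summit was upstream in 31 of the 55 (56.4%, next to 53.2% of all genes with a candidate) and downstream in 24, at a median distance of 324 bp, next to 417 bp over all such genes. It was in intergenic sequence at 24 genes (43.6%, next to 36.1% of all genes with a candidate), in a coding exon at 21 (38.2%, next to 31.4%), in an intron at 8 (14.5%, next to 24.6%), and in a 5′ UTR and a 3′ UTR at 1 each (1.82%, next to 4.67% and 3.08%). These genes are short, with a median length of 1126 bp against 2027 bp over all genes, so a window of 1000 bp spans much of a gene and can pass its end. A tRNA gene was within 500 bp of 0 of the 55 summits, next to 1.02% over all genes with a candidate. A snoRNA gene was that near to 1 (mrpl-4, pooled signal 2.84; 1.82%, next to 0.813%) and an ncRNA gene to 1 (mrpl-41, 4.18; 1.82%, next to 8.23%).

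**Figure D3:**
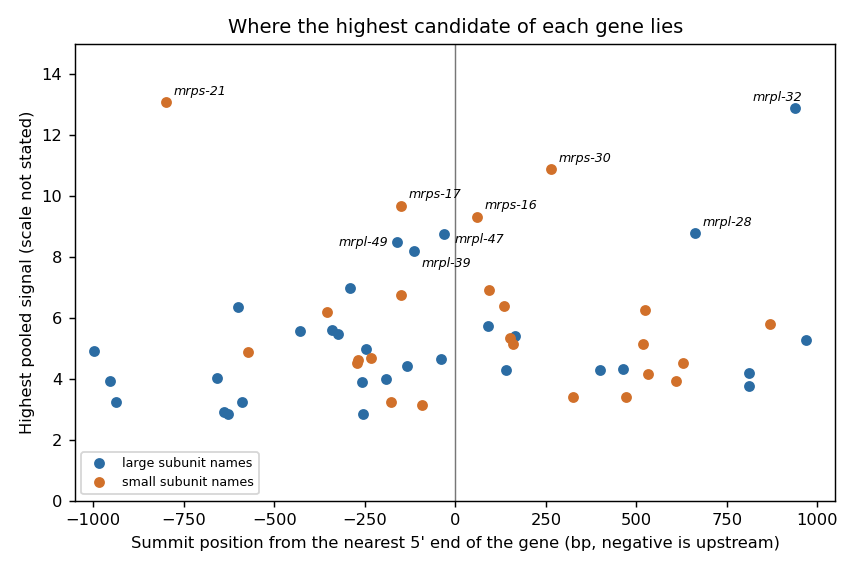
Summit of the highest pooled candidate relative to the nearest annotated 5′ end of its gene (horizontal axis, bp, negative is upstream) and its signal (vertical axis, scale not stated) for the 55 genes with a candidate, large-subunit names in blue and small-subunit names in orange. The 9 genes with a stronger candidate are labelled; mrps-21 (798 bp upstream) and mrpl-32 (937 bp downstream) are the highest and lie far from the 5′ end.

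Part of the highest candidates lay nearest to another gene. The highest candidate was nearest to the gene itself at 41 of the 55 (74.5%), next to 85.6% of all genes with a candidate, and nearest to another gene at 14. The 55 genes had 80 gene and candidate pairs from 78 candidates, of which 2 were within reach of 2 members of the family. The highest candidate of mrpl-1 and that of mrps-24 were the same peak (3.92, rank 18229), nearest to the 5′ end of nhr-8, itself a nuclear hormone receptor gene. At mrpl-44, the 5′ end of mccc-2 was at the same position, and the candidate (4.42) was equally near to both.

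Crowding of genes was larger around this family than around genes in general. Another protein-coding 5′ end lay within 1000 bp of 40 of the 70 genes (57.1%), against 25.5% of all genes. Among genes with such a neighbour, 80.0% of the family and 61.5% of all genes had a candidate; among genes without one, 76.7% of 30 and 51.7%. An upstream gene on the same strand ended within 500 bp of 27 genes (38.6%, against 18.1%), an arrangement found in operons, and 74.1% of these had a candidate, against 55.7% of all such genes. Only 9 of the 70 genes had more than 1 annotated 5′ end (12.9%, against 27.4%), and among genes with 1, 78.7% of the family and 49.4% of all genes had a candidate. The share of the family with any candidate was above that of all genes in each of these classes. For stronger candidates it was not so with a neighbouring 5′ end within 1000 bp, where the share was 12.5% of the family and 13.2% of all genes, while without one it was 13.3% and 7.33%. None of these differences was tested.

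**Figure D4:**
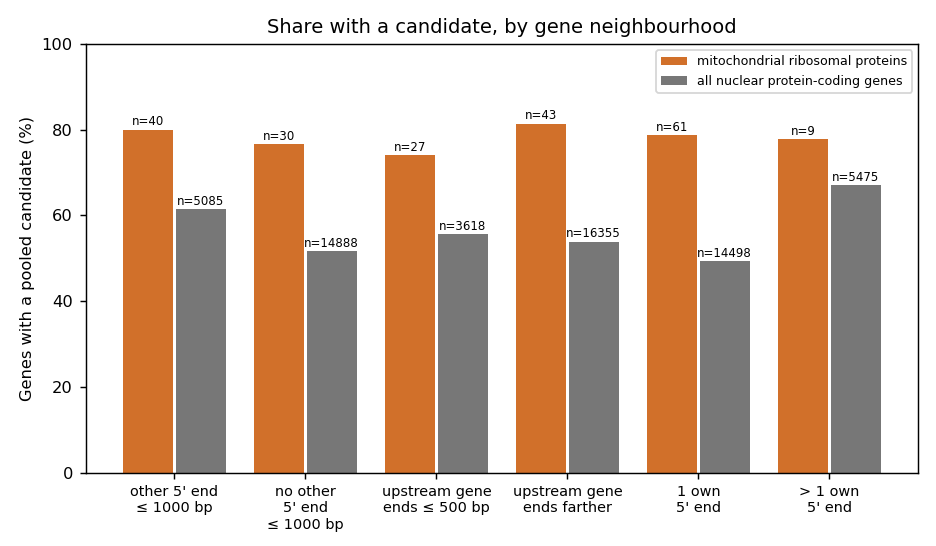
Share of genes with a pooled candidate within 1000 bp of a 5′ end (vertical axis, percent) by the gene's neighbourhood, for the mitochondrial ribosomal protein genes (orange) and all nuclear protein-coding genes (grey), with the number of genes above each bar. The orange bars run from 74.1% to 81.4% and each is above the grey bar beside it.

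Other genes of mitochondrial and cytosolic translation put these values in place. Of 28 symbols outside the mrpl and mrps names, listed for mitochondrial translation and ribosome assembly, 13 matched the annotation. Of the 13, 9 had a pooled candidate (69.2%). The highest was mma-1, for a mitochondrial RNA-binding protein of the LRPPRC type, with 13.7 in the pooled list (rank 333), 6.40 in replicate 1 and 6.51 in replicate 2. Next was nsun-4, for a methyltransferase of mitochondrial ribosomal RNA in mammals, with 6.58 (rank 4950), then the elongation factor genes tufm-2 (5.12) and tufm-1 (5.07). The genes dap-3, gfm-1, oxa-1 and tfbm-1 had no pooled candidate, and none of the 13 had a final peak.

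Genes for the cytosolic ribosome stood higher. Of 78 such genes, 70 had a pooled candidate (89.7%), 26 a stronger one (33.3%) and 5 a final peak (6.41%), with a median highest signal of 6.67. For the 70 mitochondrial ribosomal protein genes the same values were 78.6%, 12.9%, 0 and 4.92. The 50 genes listed for the respiratory chain and ATP synthase gave 64.0%, 16.0%, 2 genes at a final peak and 6.15. The 32 aminoacyl-tRNA synthetase genes gave 75.0%, 9.38%, 1 gene and 4.82. These lists were chosen by symbol, and the differences between them were not tested.

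**Figure D5:**
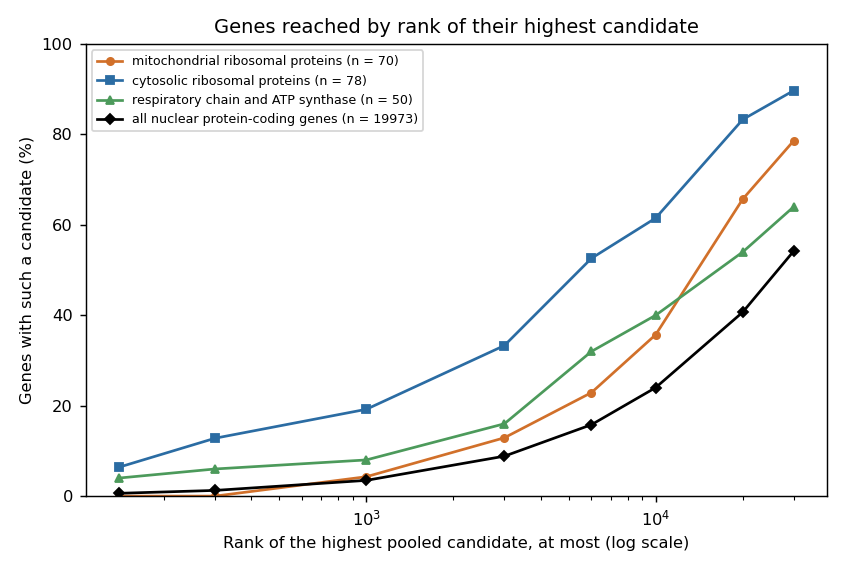
Share of genes (vertical axis, percent) whose highest pooled candidate within 1000 bp has at most the rank on the horizontal axis (log scale, 140 to 30000), for 4 groups of genes. The mitochondrial ribosomal protein genes stand at 0% up to rank 300, at 12.9% by rank 3000 next to 8.83% of all genes, and at 78.6% by rank 30000 next to 54.2%; the cytosolic ribosomal protein genes lie above them at each point.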

How the data were processed

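Peaks of 2 biological replicates of 1 group were used as the authors deposited them in narrowPeak lists. Per the deposited README text, the replicate lists derive from each replicate's alignment and the pooled list from both, each with a further input that also enters the control-normalized tracks but is not itself described there. The final list derives from these lists by irreproducible discovery rate (IDR). Which aligner, peak caller and IDR threshold were used is not given in the sources used here, nor are read numbers. Column 7 of the deposited lists is the authors' signal value and column 9 the −log10 of the q-value. The ce10 lists were not analysed here, since no ce10 annotation was used.

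Summits were matched within 1000 bp to 5′ ends of all transcripts of nuclear protein-coding genes in Ensembl release 115 (WBcel235, the ce11 assembly; every peak end lay within its 7 sequences). Equal signals took the same, better rank. Matching was tested on simulated positions. Shares have exact Clopper-Pearson intervals. All genes under the same rule served as background across the genome, and no test was made. Described singly were genes listed in both replicates and the 15 with the highest pooled signal; others were named after their values were seen. Genes, lists and motifs were chosen with earlier results of these data known. Python 3.11.15, pandas 2.3.3 and scipy 1.17.1 were used.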

Additional observations from a re-analysis of the deposited data

How the results depend on the processing

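The alternatives concern distance, assignment, rank and the replicate lists. With summits within 200 bp, 22 genes had a pooled candidate (31.4%, against 18.9% of all genes), 5 a stronger one (7.14%, against 2.83%) and 3 were in both replicates (4.29%, against 1.93%). Within 500 bp 8 were in both replicates (11.4%, against 6.06%), and within 2000 bp 25 were (35.7%, against 24.2%). With each peak given only to the nearest gene, 43 had a pooled candidate (61.4%, against 48.7%) and 8 a stronger one (11.4%, against 7.24%). Under that rule 7 were in both (10%, against 9.91%), a share close to that of all genes. Requiring the same site left 5. Among the 10000 highest signals 25 genes had a candidate (35.7%, against 24.0%), among the 1000 highest 3 (4.29%, against 3.48%) and among the 6000 highest 16 (22.9%, against 15.8%). A final peak was at 2 genes, mrps-28 and mrpl-23 (2.86%), within 2000 bp (against 0.871%) or when any base of a peak counted (against 0.681%), and at 0 under the other settings tried. With 1 replicate left out, the genes with a candidate numbered 19 to 50, those with a stronger one 11 to 12, those at a peak as high in that replicate's list as the final set is long 0 to 0, and the median signal was 3.36 to 4.60 on the lists' own scales. The lower count, 19, came without replicate 2, from a list of 7516 peaks. No paired analysis was possible because there is 1 group. The depth is unknown, so a gene without a candidate cannot be called unbound.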
